A study of Drosophila melanogaster with 5 samples.

Results

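The Niemann-Pick type C (NPC) genes encode proteins that carry sterols out of the late endosome and lysosome, the compartments where lipids taken up by a cell are broken down. The NPC1 proteins sit in the membrane of these compartments, and the small secreted or lumenal NPC2 proteins bind sterols and hand them on to NPC1. Insects cannot make sterols and depend on those of their food, in this study yeast, for membranes and for the moulting hormone ecdysone. The fly genome holds several NPC2 genes where mammals have a single one, and in Drosophila some of the encoded proteins have also been found to bind components of bacterial cell walls.

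The genes were chosen by name, as the probes whose annotated symbol was Npc1a, Npc1b or one of Npc2a to Npc2h. Of these 10 genes, 9 had a probe and 8 had a value, among 10125 genes measured in all. Npc1b had no probe named for it, and the probe of Npc2f had no value on any array, so neither is analysed here. Each of the 8 measured genes rested on 1 probe, spotted in 2 copies on each of 5 arrays, which allowed at most 10 usable spots.

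The arrays compared whole Drosophila melanogaster females, 14 days old, after 48 h on yeast paste as their food. In the deficient flies the driver InsP3-Gal4 switched on UAS-RPR/HID, the cell death genes reaper and hid, in the insulin-producing cells (IPCs), brain neurons that secrete insulin-like peptides. The control females carried the same driver, InsP3-Gal4, with UAS-LacZ. RNA from both was hybridised together on 5 two-colour arrays from 2 biological repeats, with the IPC-deficient RNA in Cy5 on arrays 1 and 2 and in Cy3 on arrays 3, 4 and 5.

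The table deposited by the authors holds 1 signed fold change per probe, the same on every array that has a value, since all hybridisations had been combined. A spread between arrays or flies could therefore not be computed, and no test between IPC-deficient and control flies was possible. The fold was converted to a log2 value that keeps its sign. The numerator is not stated, and here a negative value stands for a lower level in the IPC-deficient flies. This direction is likely and not certain, since it rests on the design naming the deficient flies first and on tobi, an alpha-glucosidase gene named as a target of brain insulin, at -4.10. As a measure of error, different probes of the same gene differed with an SD of 0.18 on the log2 scale where both were on all 5 arrays (647 genes, 1437 probes), and with an SD of 0.56 over all probes (1167 genes, 2649 probes). In whole flies, fewer cells of a type and less RNA per cell cannot be told apart.

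The 6 NPC genes with a value on all 5 arrays stood close to 0, between -0.17 for Npc2e and 0.20 for Npc2a, and none of them reached 1.5-fold. The 2 genes beyond 1.5-fold, Npc2c at -0.65 and Npc2h at -0.71, lay on the negative side and were measured from 4 spots and 1 spot. Over all measured genes, 5.36% lay beyond 1.5-fold, 3.11% on the negative side and 2.25% on the positive side. Among the 6564 genes on all 5 arrays the share was 2.68%, with 0.731% on the negative side and 1.95% on the positive side. With 5 of 8 genes above 0 and 3 below, the median of the NPC genes was 0.03. All measured genes had a median of -0.01, with 48.1% above 0. Without Npc2c and Npc2h, 5 of 6 NPC genes were above 0 and the median was 0.07. Among the 6564 genes on all 5 arrays, 3272 were above 0 and the median was -0.0003. Of the 6 NPC genes, 5 lay within the SD of 0.18 from 0. Probes with 1 gene symbol had a median absolute value of 0.10 with 10 spots and 0.11 with 9, so most of them lay within it too.

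**Figure D1:**
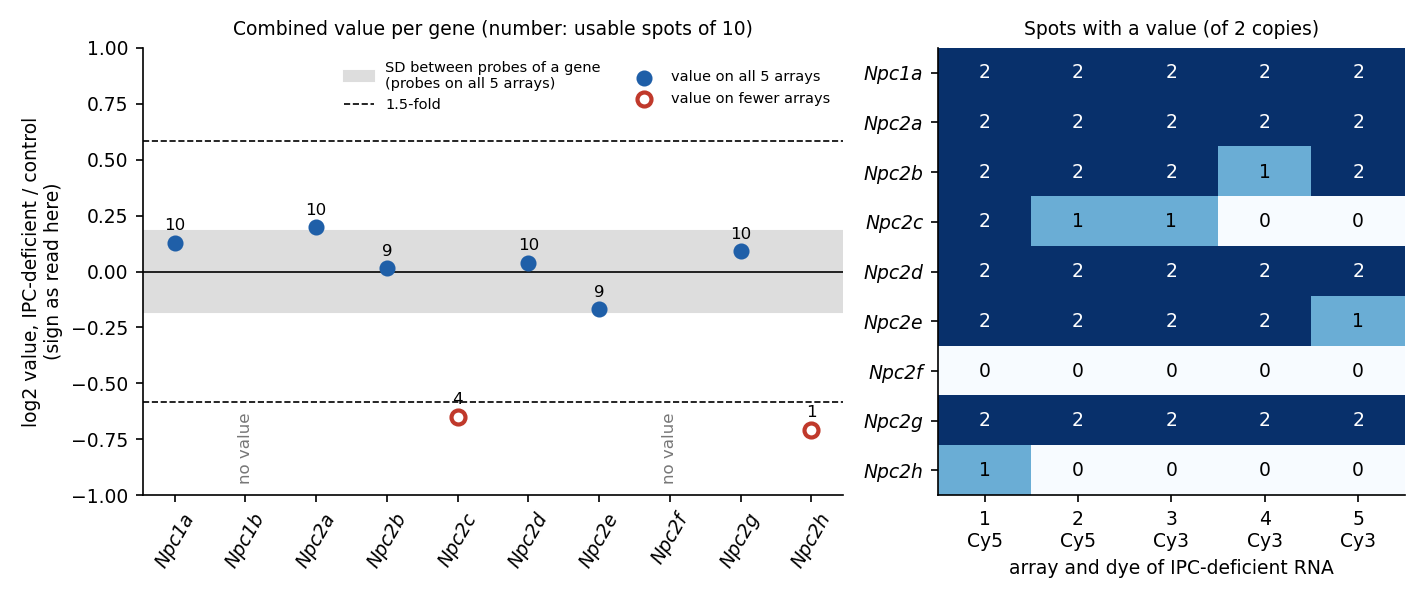
The left panel plots the combined log2 value of each NPC gene, with the number of usable spots above each point, the SD of 0.18 between probes of a gene as a grey band and 1.5-fold as dashed lines. The right panel gives the number of spots with a value per gene and array; the genes on all 5 arrays lie between -0.17 and 0.20, while Npc2c and Npc2h, beyond 1.5-fold, have 4 and 1 usable spots.

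Npc1a is the widely expressed fly counterpart of the human gene mutated in most patients with Niemann-Pick type C disease. Its combined signed fold was 1.09, from 10 usable spots, a log2 value of 0.13. This is less than the SD between probes of 1 gene. Npc1b, known as the member of the midgut that is needed to absorb sterol from food, is not analysed here, so the step of dietary uptake has no value of its own in these data.

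Npc2a and Npc2b are known to act together in Drosophila to keep sterol levels and to supply sterol for ecdysone. The combined signed fold of Npc2a was 1.15, from 10 usable spots. Its log2 value of 0.20 was the highest of the family, just above the SD between probes. Npc2b had a combined signed fold of 1.01 from 9 spots, missing 1 copy on array 4, and a log2 value of 0.01. They were 0.18 apart, less than the SD of a difference between probes on all arrays, 0.25.

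Npc2e lies next to Npc2d and Npc2c on chromosome arm 3R, without another gene between them in the gene order of the RefSeq table. Npc2e, whose protein in Drosophila binds bacterial cell wall components, had a combined signed fold of -1.12, a log2 value of -0.17. It came from 9 spots, missing 1 copy on array 5. Npc2d had a combined signed fold of 1.03 from 10 usable spots and a log2 value of 0.04. These neighbours lay on different sides of 0, each within 1 SD of it.

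Npc2c, the third gene of this group, had a signed fold of -1.57, a log2 value of -0.65. It came from 4 spots, both copies on array 1 and 1 copy each on arrays 2 and 3, while arrays 4 and 5 had none. The fold was beyond 1.5 but not beyond 2. Within 2 spots of its place on the array, 4 of 23 measured probes were also beyond 1.5-fold on the negative side, and the median of the 23 was -0.14. Around each of the other 7 NPC probes, 0 or 1 of 21 to 24 such neighbours was beyond 1.5-fold on that side. The part of array position in the value of Npc2c was not tested.

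Npc2g and Npc2h form a second neighbouring pair on arm 3R. Npc2g had a combined signed fold of 1.07 from 10 usable spots and a log2 value of 0.09. Npc2h, whose protein in Drosophila also binds bacterial cell wall components, had a signed fold of -1.63, a log2 value of -0.71, and this was the lowest of the family. It came from 1 copy on array 1 alone, an array with IPC-deficient RNA in Cy5, so no second spot or opposite dye stands behind it.

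**Figure D2:**
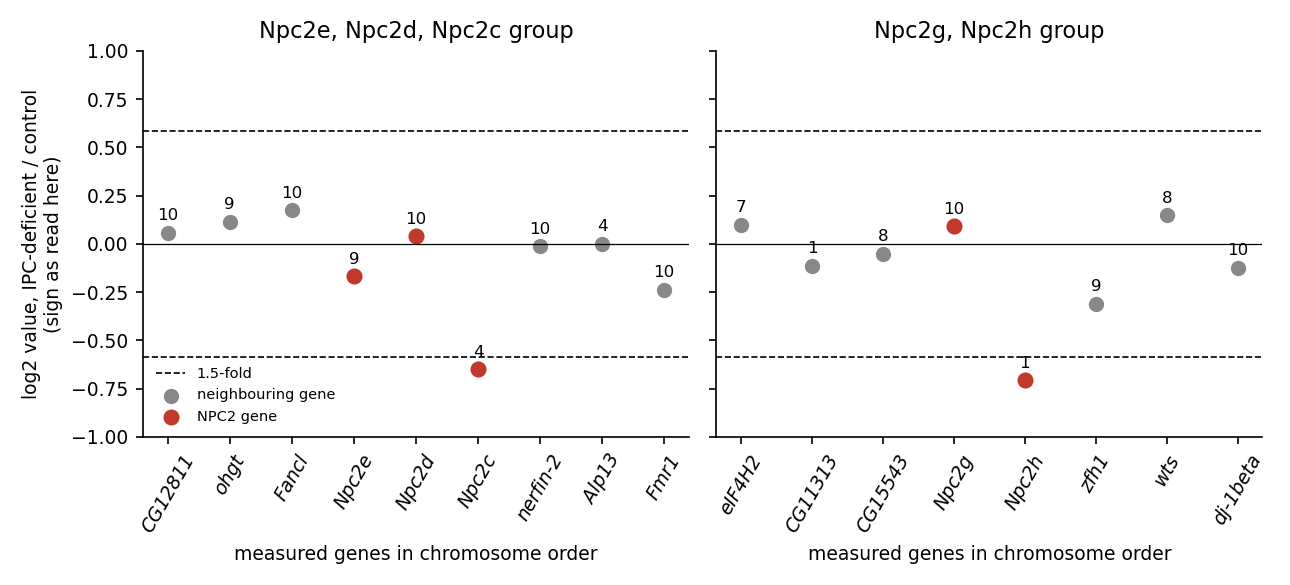
Log2 values of the Npc2e, Npc2d and Npc2c group (left) and the Npc2g and Npc2h pair (right) in red, with up to 3 measured genes on either side in grey, in chromosome order; numbers are usable spots and dashed lines 1.5-fold. In each group 1 NPC2 gene, measured from 4 spots or 1 spot, lies below the lower line, and the flanking genes shown lie between -0.31 and 0.17.

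The genes around both groups stood closer to 0 than Npc2c and Npc2h. The nearest measured genes beside the Npc2e, Npc2d and Npc2c group were Fancl, a gene of DNA crosslink repair, at 0.17 and nerfin-2, which encodes a zinc finger protein, at -0.01. Beside Npc2g and Npc2h they were CG15543 at -0.05 and zfh1, a zinc finger and homeodomain transcription factor, at -0.31. Among the single genes, Npc1a lay between ath at 0.07 and the proteasome subunit gene Prosalpha6 at 0.10. Npc2b lay between foxo, the transcription factor restrained by insulin signalling, at 0.09 and the neuropeptide gene CCHa1 at 0.20. Npc2a lay between Got2, a mitochondrial transaminase gene, at -0.18 and the neuropeptide precursor gene Nplp4 at 0.13. The nearest measured genes beside the unmeasured Npc2f were Sec10, an exocyst subunit gene, at -0.17 and Kal1 at -0.02, and beside Npc1b they were CG11227 at 0.06 and Ser6, a serine protease gene, at 0.16. Related NPC2 transcripts can cross-hybridise on spotted probes, and the probe sequences were not used here, which leaves the value of any one member uncertain.

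From high to low, the order was Npc2a, Npc1a, Npc2g, Npc2d, Npc2b, Npc2e, Npc2c and Npc2h. Neighbours in this order from Npc2a down to Npc2b were 0.03 to 0.07 apart, and Npc2b and Npc2e were 0.18 apart, all less than the 0.25 expected as the SD of a difference between probes on all arrays. The widest step, 0.48, lay between Npc2e and Npc2c. Since Npc2c was not on all arrays, that step is set against the SD of a difference over all probes, 0.79, which is larger. Npc2c and Npc2h were 0.06 apart. Neighbours in a sorted order are close by construction. Probes of the same gene also differ by more than 1 such SD at times, so gaps of that size do not by themselves separate members. Some members further apart in the order did differ by more than 1 such SD. Among the 15 pairs with both genes on all 5 arrays, 3 did so, Npc2e lying 0.37 below Npc2a, 0.30 below Npc1a and 0.26 below Npc2g. All 3 pairs rest on the same value, that of Npc2e. Of the 13 pairs with Npc2c or Npc2h, 4 were beyond the SD over all probes, which pools probes of every spot number. Npc2h lay 0.90 below Npc2a, 0.84 below Npc1a and 0.80 below Npc2g, and Npc2c lay 0.85 below Npc2a. These are gaps between single probes, with no test. The share of same-gene probe pairs beyond 1 such SD was not counted, so neither count of pairs can be read as an excess. Probes with 1 spot differed from probes of their gene on all arrays by a median of 1.46, more than any of these Npc2h gaps. For probes with 4 spots, as for Npc2c, that median was 0.26.

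Probes with few usable spots tended to stand further from 0. Among probes with 1 gene symbol, 0.395% of the 4559 with all 10 spots lay beyond 1.5-fold on the negative side, as did 0.9% of the 1666 with 9. The share was 9.16% for the 786 probes with 4 spots, as for Npc2c, and 33.6% for the 146 with 1 spot, as for Npc2h. On the positive side these shares were 2.15%, 1.92%, 2.04% and 13.0%.

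**Figure D3:**
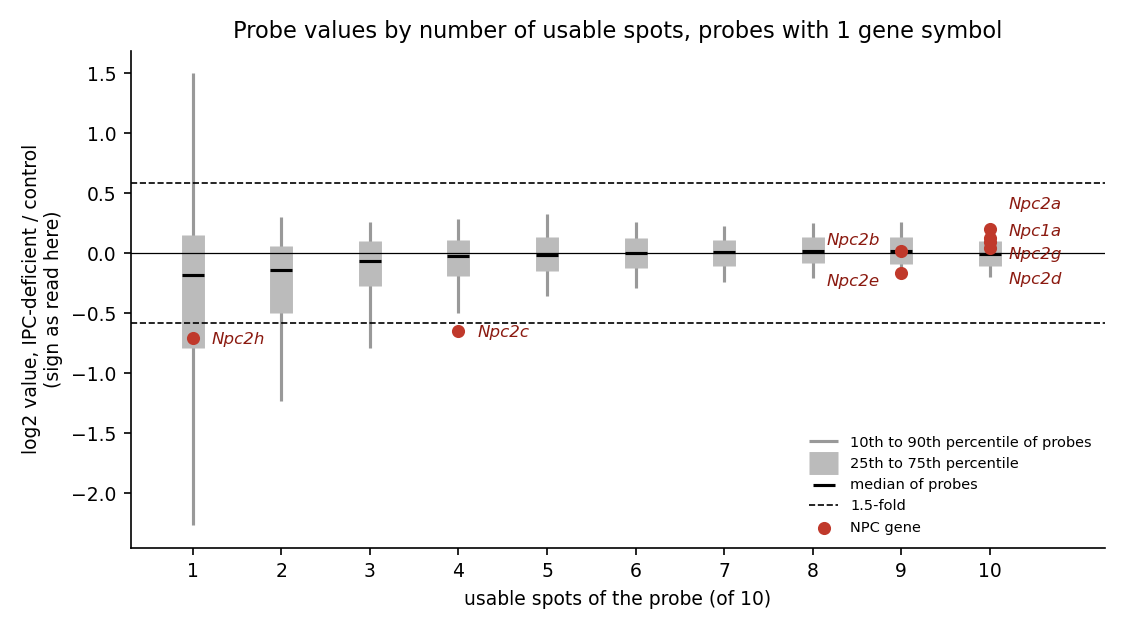
Log2 values of probes with 1 gene symbol against the number of usable spots, with the 10th to 90th percentile as a line, the 25th to 75th as a bar and the median as a dash; NPC genes are red points and dashed lines mark 1.5-fold. Npc2h at -0.71 lies inside the bar for 1 spot, which reaches down to -0.79, and Npc2c at -0.65 lies below the 10th percentile of -0.50 for 4 spots.

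Different probes of the same gene were also compared by their number of usable spots. The part of spot number in these differences was not tested. Some probes with 4 spots shared their gene with a probe measured on all 5 arrays, and the median size of the difference was 0.26, with 24.6% of 114 such probes more than 1.5-fold from it. For probes with 1 spot the median was 1.46, and 76.7% of 43 probes were more than 1.5-fold apart. The 1437 probes on all arrays differed from their fellow probes by a median of 0.11, and 2.44% were that far apart. Neither Npc2c nor Npc2h had a second probe against which its value could be read.

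Genes that act beside the NPC proteins in sterol handling also stood mostly near 0. The SREBP pathway and other proteins with a sterol-sensing domain had 6 measured genes and a median of -0.06. Of these 6, 0 were beyond 1.5-fold, beside 5.36% of all measured genes. The furthest of the 6 from 0 were ptc, the Hedgehog receptor patched, which is related to NPC1, at 0.33 and SREBP, the lipid-sensing transcription factor, at 0.14. In the mevalonate pathway, which in flies makes isoprenoids but no sterol, the 5 measured genes had a median of -0.05, with Hmgs at 0.33, from probes at 0.30 and 0.37, and qm at -0.13 from 4 spots. The median of 6 oxysterol-binding, START-domain and sterol carrier genes was -0.02, with CG3860 at -0.17 and CG1513 at -0.16, both of the oxysterol-binding family. Start1, a START-domain protein linked to sterol supply for ecdysone, stood at 0.10.

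Genes that bring lipids to cells were likewise inside 1.5-fold. The 4 measured lipoprotein genes and receptors, of 7 listed, had a median of -0.02. Mtp, the microsomal transfer protein that loads lipoproteins, stood at -0.24, from probes at -0.39 and -0.09. Apoltp, a lipid transfer particle protein, stood at 0.08. The 6 lipase and acyltransferase genes had a median of 0.11, led by mag (magro), a gut lipase that also cleaves sterol esters, at 0.31 and Lip1 at 0.20 from 4 spots. The CD36 family of lipid and pigment receptors had all 4 of its measured genes above 0 and a median of 0.19, emp at 0.36 and santa-maria at 0.30, beside 48.1% of all measured genes above 0.

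Among the receptors and enzymes of sterol-derived hormones, 1 of 9 measured genes was beyond 1.5-fold, beside 5.36% of all measured genes. The 1 gene was sad (shadow), a P450 enzyme of ecdysone synthesis, at 0.87 from 6 spots. Cyp18a1, which breaks ecdysone down, stood at 0.52 from 10 spots, below the threshold. Hr96, a nuclear receptor that binds sterol and is known to act on Npc1b, stood at -0.13, and the list had a median of -0.01.

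The lysosomal and immune lists bear on the compartment and on the second known role of NPC2 proteins. Of 16 listed lysosomal genes 9 were measured, with a median of 0.06. Of these 9, 7 were above 0, beside 48.1% of all measured genes. The 7 include CtsL1 at 0.02 and CtsB at 0.005, the last from probes at -0.21 and 0.22. LManI, a lysosomal alpha-mannosidase, was the 1 gene of these 9 beyond 1.5-fold, at 0.81 from 10 spots. Of all measured genes, 5.36% were beyond 1.5-fold. The Imd pathway, the immune pathway that senses bacterial peptidoglycan, had 9 measured genes, a median of 0.03 and no gene beyond 1.5-fold. Its furthest members were Tab2 at 0.44, from probes at -0.04 and 0.91, and Rel, the transcription factor Relish, at 0.18.

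**Figure D4:**
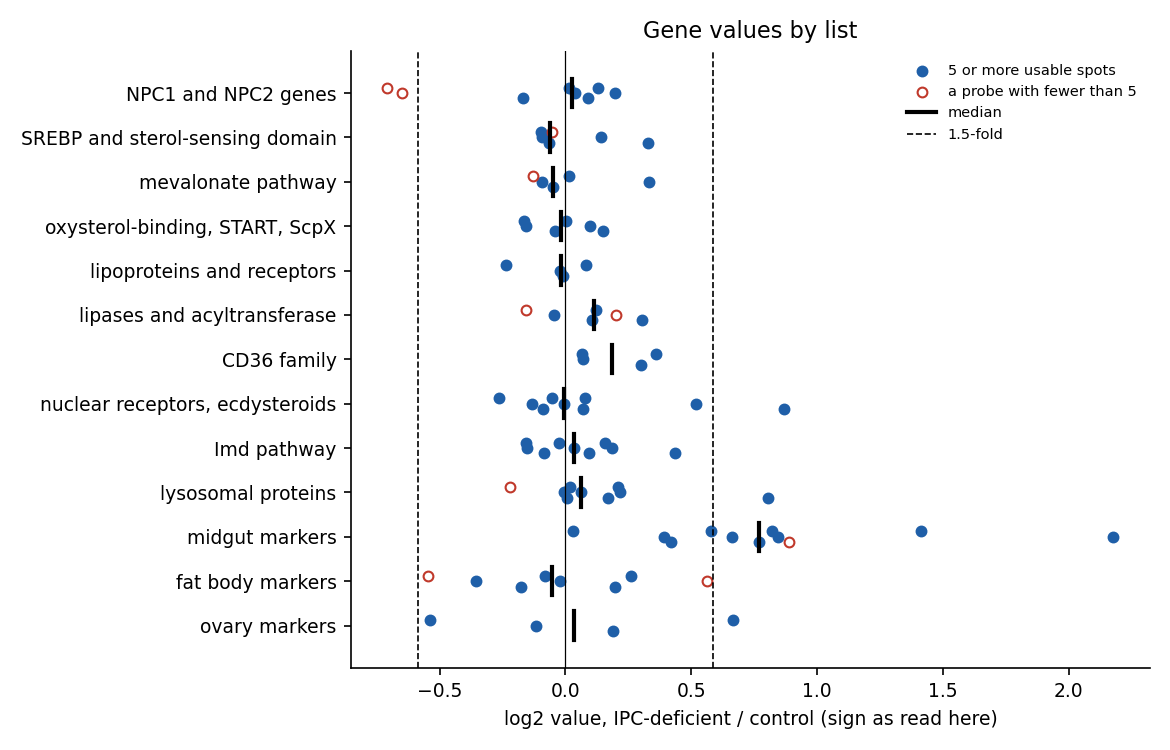
Log2 values of single genes in the NPC family, in 9 lists of related function and in 3 tissue marker lists, with the median of each list as a bar and 1.5-fold as dashed lines; open points have a probe with fewer than 5 usable spots. The sterol, lysosome and immune lists have medians between -0.06 and 0.19, and the midgut markers a median of 0.77.

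Tissue markers did not all stand where the NPC genes stood. All 11 midgut markers were above 0, from 0.03 to 2.18, with a median of 0.77 and 7 beyond 1.5-fold on the positive side. Of all measured genes, 48.1% were above 0 and 2.25% were beyond 1.5-fold on that side. This marker list was chosen with earlier results of these data known. Among the 7 were the midgut gene mex1 at 0.82, betaTry at 0.77 and Jon25Bi at 0.66, the last 2 encoding digestive proteases. The other 4 past the threshold were the alpha-mannosidase gene LManVI at 2.18, the amylase gene Amy-p at 1.41, Peritrophin-A at 0.89 from 3 spots and the trypsin gene lambdaTry at 0.84. No measured NPC gene was as high as 10 of these 11 markers, the exception being Vha100-4 at 0.03. The 8 fat body markers ranged from Fbp2 at -0.55 to Fbp1 at 0.56, each from 3 spots, around a median of -0.05, and none was beyond 1.5-fold. Their part, and that of the midgut markers, in the NPC values was not tested.

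Of the other marker lists, that of the ovary had 4 of 8 genes measured, without vas, nos, osk and Vm26Ab. Their median was 0.04. The chorion gene Cp18 at 0.67 and Cp36 at 0.19 lay above 0. The vitelline membrane gene Vm32E at -0.54 and otu at -0.12 lay below it. The 4 measured neuron genes, of 5 listed, had a median of 0.17, with nSyb at 0.48 and VAChT at 0.22. The median of 4 measured muscle markers was 0.50, with flightin, fln, at 1.17. Mhc had no value. The probes of Act88F disagreed, 1 at -2.76 (4 spots) and the other at 1.60 (10 spots), for a gene value of -0.58. Hemocytes had a median of 0.08 over 5 genes, with PPO1 at 0.72 and PPO2 at 0.54, but Hml at -0.56 and NimC1 at -0.11. Hml, NimC1 and eater, at 0.08, came from 2 or 3 spots. The 2 measured Malpighian tubule markers were Irk3 at 0.23 and ZnT35C at -0.84, the last from probes at -1.78 with 2 spots and 0.11 with 10. All 5 measured male accessory gland markers were below 0, from -1.32 to -0.42, although the flies are labelled female. Of the 10125 measured genes, 5250 were below 0. The 3 markers beyond 1.5-fold, Acp95EF at -1.32, Acp36DE at -0.90 and Acp62F at -0.87, came from 3 or 4 spots. On that side, 3.11% of all measured genes were beyond 1.5-fold. Among probes with 1 gene symbol the share there was 12.9% with 3 spots and 9.16% with 4. The low-spot values of these 3 markers lay on the same side as Npc2c and Npc2h, and what they share was not tested.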

How the data were processed

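The authors deposited a signed fold score per spot, combined over both spot copies and all hybridisations, per the labels' design text. Scans at 3 gains fed this combination, per the same text. Background correction, normalization method and build were not given in the sources used here. Of 27376 features filled in 2 or more columns, none held columns more than 1e-06 apart, and 0 of 29507 had a size under 1. Array medians on the log2 scale lay between -0.0005 and 0.0066, and 20711 to 28090 of 32448 features had a value per array.

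Spot copies were joined into 16224 probes, of which 12537 had 1 gene symbol in the annotation of 2007, 3 several and 3684 none. Symbols were updated through the Entrez identifier (12069 probes) or the accession (113) in RefSeq genes of Release 6, and 355 were kept. That table gave names, chromosome arms and gene order, not coordinates. Genes took the median of their probes, with values equal to 5 decimals counted once. Because the columns hold 1 combined value, no model was fitted, and a size of 1.5-fold served as the threshold. The joining of probes and the SD were tested on simulated data.

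The members and lists were chosen with earlier results of these data known, LManVI among the midgut markers included. The genes named are all members, in other lists those past 1.5-fold or else up to 2 furthest from 0, the nearest measured genes beside each member, and tobi. Start1, Hr96 and Cyp18a1 were added for their roles, with values known, as were other ovary, muscle and hemocyte markers to show both sides of 0. CtsL1 and CtsB were also added with values known, to show members barely above 0. Alternatives were a 2-fold threshold, centring, filters on arrays and spots, other ways of joining probes, annotation symbols and the sign turned. The number of arrays limits the precision. Python 3.11.15, numpy 2.4.6, pandas 2.3.3 and matplotlib 3.10.9 were used.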

Additional observations from a re-analysis of the deposited data

How the results depend on the processing

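The count of 2 NPC genes beyond 1.5-fold, both on the negative side, became 0 with a 2-fold threshold, with probes on all 5 arrays, with probes of at least 5 usable spots, and without the members measured from fewer than 5 spots. The last 3 leave out Npc2c and Npc2h by construction. With the sign turned, Npc2c stood at 0.65 and Npc2h at 0.71, giving 0 genes on the negative side and 2 on the positive side, and all other directions would turn too. The medians of all NPC genes and of the NPC2 genes moved by less than the SD between probes under each alternative tried for them. Centring, which only subtracted the probe median of -0.0024 from every value, and the symbols as annotated each moved 0 values beyond that SD. The mean over probes and the probe with the most spots could not move a value, since each of the 8 measured genes had 1 probe. Since the columns hold 1 combined value, leaving out an array was not possible. The count of usable spots, not intensity, was the measure of quality, and it limits what can be said of Npc2c and Npc2h.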
